A study of Mus musculus with 43 samples.

Results

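The genes that encode the proteins of the cytosolic ribosome were followed in bulk RNA sequencing of laser-injured mouse retina. Members were the protein-coding genes of the deposited count table, typed by GENCODE M21, whose symbol was Rpl or Rps followed by a digit, or Rplp0, Rplp1, Rplp2 or Rpsa, without the S6 kinases (Rps6k) and without symbols that end in -ps. This rule found 86 genes of the 54532 in the table. Of these, 77 encode structural ribosomal proteins, 46 of the large and 31 of the small subunit. The other 9 were 8 paralogues (Rpl3l, Rpl7l1, Rpl10l, Rpl22l1, Rpl36al, Rpl39l, Rps27l and Rps27rt) and Rps19bp1, which the symbol rule takes in although its product binds a ribosomal protein and is not one.

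The study asked how short-chain fatty acids (SCFA) given by mouth act on laser-induced choroidal neovascularization, a model of wet macular degeneration, in females and males. All mice were C57BL/6J, 9 weeks old, and all received retinal laser burns, the controls included, so no group was uninjured. Control mice had no SCFA supplement, and treated mice drank 67.5 mM sodium acetate, 40 mM sodium propionate and 25 mM sodium butyrate from before the laser until collection. The amounts by weight that the labels give for propionate and butyrate do not match these molar values, so the doses of both salts are uncertain. Retinas were taken at 3, 7 or 14 days post laser (dpl), and each of the 43 libraries pooled 2 retinas from 2 mice. The 12 groups of sex, day and treatment held 3 to 5 libraries each, as their titles give sex, day and treatment, with totals of 14826957 to 21507527 counts.

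The ribosome joins a small subunit, which reads the mRNA, to a large subunit, which forms the peptide bond, and most of its proteins are present in a single copy, the stalk proteins Rplp1 and Rplp2 being exceptions. Their mRNAs are among the most abundant of any cell and typically start with a C followed by a stretch of pyrimidines, the terminal oligopyrimidine (TOP) motif, through which mTOR and the RNA-binding protein Larp1 control their translation. Photoreceptors, which make up most of the cells of the mouse retina, renew their outer segments throughout life and depend on steady protein synthesis. In bulk samples, fewer cells of a type and less RNA per cell cannot be told apart.

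Start windows of 8 members are printed because the start carries the feature these genes are known for. Each line gives 45 bases on the gene's strand, 30 before the annotated start and 15 from it on, from RefSeq on GRCm38.p6. Capitals mark the longest unbroken run of C and T that touches a base within 10 of the start.
Rpl35 chr2:39005117-39005161 -: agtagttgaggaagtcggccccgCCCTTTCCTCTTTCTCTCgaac
Rps6 chr4:86857353-86857397 -: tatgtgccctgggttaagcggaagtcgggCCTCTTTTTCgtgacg
Rpl38 chr11:114668550-114668594 +: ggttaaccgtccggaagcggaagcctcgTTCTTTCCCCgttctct
Rplp2 chr7:141447621-141447665 +: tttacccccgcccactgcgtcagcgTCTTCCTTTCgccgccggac
Rps27 chr3:90213634-90213678 -: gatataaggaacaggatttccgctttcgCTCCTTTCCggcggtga
Rpl10 chrX:74270786-74270830 +: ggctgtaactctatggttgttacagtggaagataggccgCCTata
Rpl5 chr5:107900498-107900542 +: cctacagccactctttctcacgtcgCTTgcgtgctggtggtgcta
Rps3a1 chr3:86142654-86142698 -: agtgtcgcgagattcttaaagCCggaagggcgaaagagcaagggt
The first 5 had long marked runs and the last 3 had marked runs of 3 or fewer bases. Only runs that touch a base within 10 of the annotated start are marked. Further upstream, the window of Rpl5 holds the unbroken run ctctttctc, as long as the marked run of Rps27. A short marked run therefore does not show that a gene lacks a pyrimidine stretch. Where transcription starts in these retinas was not tested. RefSeq windows were at hand for 66 of the 86 members. Among the 57 that encode structural ribosomal proteins, the run reached 8 bases or more in 43.9%, against 13.8% of the windows of 26959 other genes. A C at the annotated start followed by 4 pyrimidines stood in 21.1% of the 57 and in 2.45% of the others. The letters CCGGAA, the core to which Ets factors such as Gabpa bind, were found on either strand of the whole 300-base window in 50.9% of the 57 and in 15.1% of the others. The shares for CTTTTC were 26.3% and 21.8%, for AAGATGGC 7.02% and 2.87%, and for TATAAA 8.77% and 14.2%, likewise on both strands. The letters are a description of annotated starts and were not linked to any change below.

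Coding sequences of Rps27, a zinc-finger protein of the small subunit, and of its paralogues Rps27rt and Rps27l are printed because reads may not separate them. They were taken from GENCODE M21 on GRCm38, where Rps27 lies at chr3:90212522-90213651, Rps27rt at chr9:114982366-114982739, both on the minus strand, and Rps27l at chr9:66946086-66949516 on the plus strand. Capitals in Rps27l mark the bases that differ from Rps27.
Rps27: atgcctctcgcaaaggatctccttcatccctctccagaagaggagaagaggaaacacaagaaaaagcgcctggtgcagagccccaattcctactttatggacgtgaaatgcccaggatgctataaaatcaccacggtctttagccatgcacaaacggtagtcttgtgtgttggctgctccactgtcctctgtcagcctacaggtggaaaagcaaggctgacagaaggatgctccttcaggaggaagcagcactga
Rps27rt: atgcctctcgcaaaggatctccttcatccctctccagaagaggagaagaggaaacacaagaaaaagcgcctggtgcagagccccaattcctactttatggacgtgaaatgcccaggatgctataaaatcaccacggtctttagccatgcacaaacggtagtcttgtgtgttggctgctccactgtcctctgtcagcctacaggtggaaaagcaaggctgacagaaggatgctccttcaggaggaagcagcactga
Rps27l: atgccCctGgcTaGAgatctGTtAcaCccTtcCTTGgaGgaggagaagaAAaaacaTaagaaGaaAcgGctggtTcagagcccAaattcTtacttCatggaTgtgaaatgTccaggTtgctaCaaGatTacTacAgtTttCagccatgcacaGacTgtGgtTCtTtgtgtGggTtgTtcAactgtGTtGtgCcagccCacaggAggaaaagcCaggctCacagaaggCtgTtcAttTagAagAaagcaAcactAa
Rps27 and Rps27rt were identical over all 255 coding bases, so a read from that part cannot be assigned to one of them. Rps27l differed at 61 of the 255 positions and shared no 50-base window with either, so its counts can be told apart. The row named Rps27rt held a median of 1.21% of the counts of the Rps27 and Rps27rt pair, and its value is uncertain.

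Counts are given as CPM, counts scaled to a common library size with the trimmed mean of M-values (TMM), and levels of different genes are compared only per kilobase of the main transcript. In the filter on low counts, 84 of the 86 members passed. Rpl10l, the testis copy of Rpl10, was at 0 counts in all 43 libraries, and Rpl39l was at 0 in 24. Among the 74 structural members whose exons were not mostly shared with another annotated gene, the median level ran from 40.4 CPM per kilobase for Rps15a to 1687 for Rplp1, with a median of 402. The 10 highest were Rplp1, a protein of the acidic stalk that recruits elongation factors, followed by Rps15, Rps27, Rpl9, Rpl26, Rps21, Rps14, Rpl8, Rps18 and Rpl36, the last at 705 CPM per kilobase. The highest of these levels per kilobase was 41.8 times the lowest.

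At the low end stood 4 genes whose main transcript shares most of its exonic bases, on the same strand, with an overlapping annotated gene. These were Rpl24 (71.5% shared), Rpl36al (63.1%), Rpl13a (59.3%) and Rps10 (53.6%), with levels of 2.64, 0.583, 25.1 and 3.56 CPM per kilobase. Median counts were only 32 for Rpl24 and 57 for Rps10, both core subunits of every ribosome, and the overlapping genes were themselves at a median of 0 counts. Values of these 4 are uncertain. Of the other low members, Rpl3l, a copy of Rpl3 used in striated muscle, stood at 0.108 CPM per kilobase and held 0.0274% of the counts of the pair. Rps27rt stood at 10.8, Rpl7l1 at 18.04, Rps27l at 37.7 and Rps19bp1 at 44.9 CPM per kilobase. Rpl22l1, the paralogue of Rpl22, was the most abundant copy in relation to its partner and held a median of 14.5% of the counts of the Rpl22 pair, with 7.05 to 19.1% across libraries.

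Several facts on the libraries bear on all results. The columns of the table form 2 runs, 31 columns and then 12, and no label says what set them apart. Groups were spread unevenly over the runs: 7 of the 12 groups had libraries in both, and the other 5 only in the first. Female SCFA replicate 2 at 3 dpl carried 172618 CPM of 4 lens crystallin genes, against at most 509 in any other library. The library labelled female control replicate 2 at 7 dpl carried 40.7 CPM of Y-linked transcripts, and the other female libraries carried 0. Male SCFA replicates 1 and 3 at 7 dpl had 13.8% and 14.8% of their counts in mRNAs of the mitochondrial chromosome, against 2.499 to 11.5% elsewhere. Rod markers, which define the tissue, summed to 47264 to 98649 CPM.

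The members moved as a block with the run of columns. Their summed level ran from 20274 to 50688 CPM in the 31 libraries of the first run, with a median of 29695, and from 12744 to 21471 CPM in the 12 of the second, with a median of 18711. In every one of the 7 groups with both runs, each library of the second run lay below each library of the first. Male controls at 3 dpl gave 31134 and 36100 CPM in the first run and 13778 and 13548 CPM in the second. Female controls at 14 dpl gave 29871 CPM in the first run and 12744 and 18590 CPM in the second. As a share of raw counts the members made up 2.08 to 3.61% in the first run and 1.37 to 2.23% in the second, so the ranges overlapped only at their ends.

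**Figure D1:**
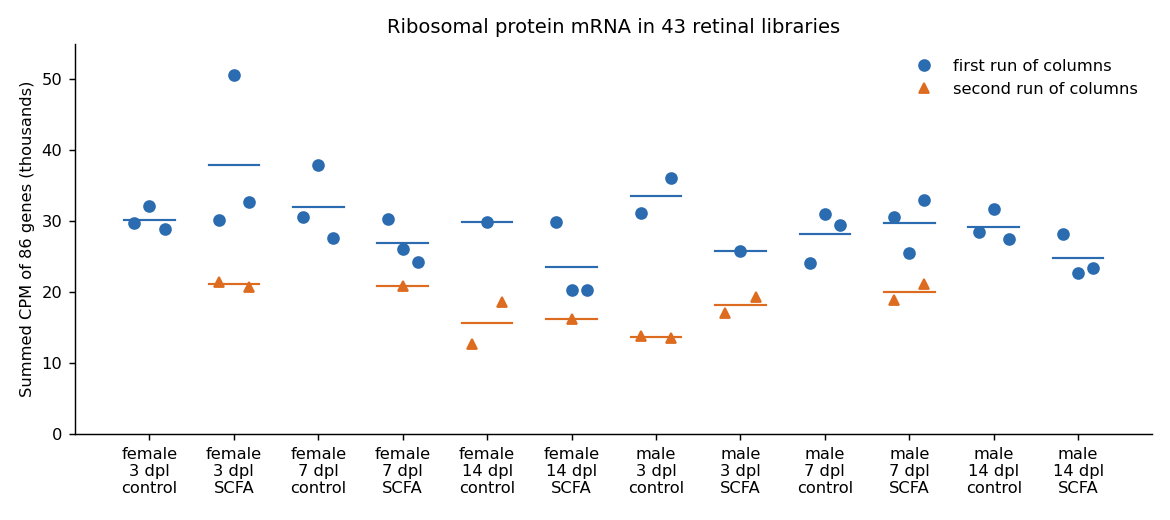
Summed CPM of the 86 ribosomal protein genes (vertical axis, in units of 1000 CPM) in each of the 43 libraries, by group of sex, day and treatment (horizontal axis), with the symbol giving the run of columns. In each of the 7 groups with both runs, the second-run libraries lie below the first-run libraries.

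With sex, day and treatment held fixed, edgeR's quasi-likelihood test called 79 of the 84 members lower in the second run and 0 higher, at an adjusted p (Benjamini-Hochberg over 18197 genes) under 0.1. Of all genes tested, 52.0% were called between the runs, 26.4% lower and 25.7% higher. The median log2 fold change was -0.76 over the members and -0.01 over all genes, with -0.71 for the large and -0.78 for the small subunit. DESeq2 also called 79. A difference of more than 1 on the log2 scale was called for 10 members, and for 4.80% of all genes.

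Rpl35, a large-subunit protein at the exit of the peptide tunnel, showed the lowest ratio. It read 216.5 CPM in the first-run library of the female controls at 14 dpl and 58.7 and 95.4 CPM in the second-run libraries. In male controls at 3 dpl it read 223 and 240 CPM in the first run and 62.1 and 70.4 CPM in the second. Over all libraries the first run spanned 124.3 to 358 CPM and the second 58.7 to 124.2 CPM, so the runs did not overlap. The log2 fold change was -1.20 ± 0.12 (SE), with an adjusted p of 4.2e-09 by edgeR's quasi-likelihood test. Rps27a, which is made as a fusion with ubiquitin, and the X-linked Rpl39 also had no overlap between runs, which made 3 members, against 0.126% of all genes with a lower and non-overlapping second run.

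The other members past a log2 difference of 1 were Rpl38 (-1.12), Rps12 (-1.09), Rps27a (-1.07), Rpl26 (-1.06), Rpl31 (-1.05), Rpl27 (-1.03), Rpl17 (-1.01), Rpl39 (-1.01) and, just past it, Rpl36. Adjusted p by edgeR's quasi-likelihood test was 1.6e-09 for Rps27a, 2.5e-09 for Rpl26 and 2.9e-09 for Rpl31. The acidic stalk proteins changed by -0.57 for Rplp0, the stalk base, and by -0.84 and -0.81 for Rplp1 and Rplp2. Rpsa, which also serves as a laminin receptor, changed by -0.64. Rpl5 and Rpl11, which with the 5S RNA bind Mdm2 and so signal to p53, changed by -0.78 and -0.91. Rps19 and Rps14, whose loss causes red cell failure in people, changed by -0.96 and -0.90.

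The smallest called differences were those of Rpl3 (-0.26, adjusted p 0.044 by edgeR's quasi-likelihood test), of Rps6, the substrate of the S6 kinases (-0.30, adjusted p 0.041), and of Rpl4 (-0.38). The 5 members not called were Rpl7l1 (-0.13), Rpl23a (-0.22), the low-count Rpl36al and Rpl3l (-0.67 and -0.84), and Rps10, the one member with a ratio above zero (0.31, adjusted p 0.15).

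The size of the difference went with coding length. Of the 74 members with a median of 2000 counts or more, the 24 with the shortest coding sequences (75 to 396 bases) had a median log2 fold change of -0.85. The 26 of middle length (399 to 576 bases) had -0.84 and the 24 longest (582 to 1257 bases) had -0.58. Across these 74 genes, which are not independent replicates, Spearman's rho between length and fold change was 0.60 and Pearson's r with log2 length was 0.55, given as a description. Other protein-coding genes with a longest transcript between 595.2 and 2641.7 bases, the range of most members, had a median of -0.17 and 42.8% of them were called lower, against 94.0% of the members. With an offset for transcript length in the fit, the median of the members was -0.52.

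**Figure D2:**
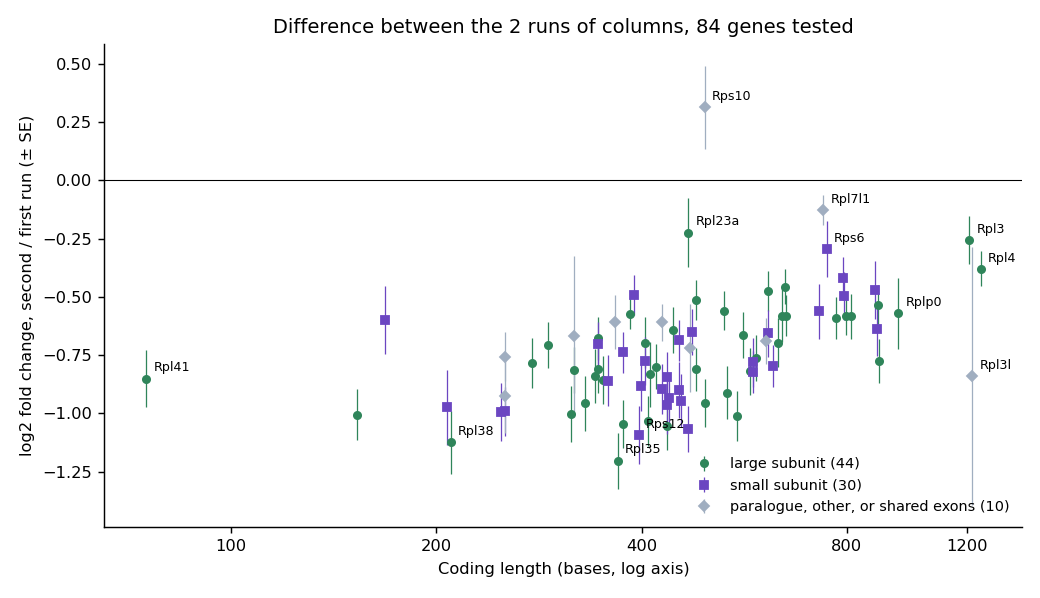
Log2 fold change of the second against the first run of columns (vertical axis, with SE) against coding length in bases (horizontal log axis), 1 point for each of the 84 tested members, by subunit and with paralogues and genes of shared exons apart. Of the 74 other genes, the longest coding sequences, 582 to 1257 bases, have a median of -0.58 and the shortest, 75 to 396 bases, a median of -0.85.

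Other genes of protein synthesis were read in the same comparison, where 26.4% of all genes were lower and 25.7% higher. Of ribosomal proteins outside the symbol rule, Fau was lower at -0.90 and Rack1 at -0.52. Of 7 tested non-coding snoRNA hosts whose RNAs are known for TOP starts, 7 were lower (median -0.78), among them Gas5 at -0.78. Of 77 mitochondrial ribosomal proteins 61 were lower and 1 higher (median -0.35). Of 8 elongation factors 5 were lower and 1 higher (median -0.23), with Eef2, which moves the ribosome along the mRNA, not called at 0.08. Of 29 initiation factors 14 were lower and 5 higher (median -0.15), of 29 biogenesis factors 11 were lower and 4 higher (median -0.05), and of 16 genes of mTOR, TOP control and the S6 kinases 5 were lower and 8 higher (median 0.13). The counts of lower genes in the last 2 lists lay nearer to the share of all genes than those of the snoRNA hosts and mitochondrial ribosomal proteins.

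Other RNA moved with the run as well, in both directions. All 13 mRNAs of the mitochondrial chromosome were lower (median -1.42), with 4.71 to 14.8% of counts in the first run and 2.499 to 4.57% in the second. Of 4 pigment epithelium markers 3 were lower (median -1.39), and their sum read 80.0 to 1198 CPM in the first run and 37.5 to 272 CPM in the second. Of 3 red blood cell markers 3 were lower (median -0.74), with sums of 25.7 to 140 and 25.0 to 49.3 CPM. Of 3 skeletal muscle markers 3 were lower, with sums of 1.76 to 53.8 and 2.05 to 3.93 CPM. Also lower were 2 of 4 oligodendrocyte, 2 of 6 microglia and macrophage, 1 of 4 cone and 1 of 4 lens markers. Bipolar cell markers went the other way, with 2 of 3 higher and sums of 349 to 509 CPM in the first run and 440 to 711 CPM in the second. Endothelial markers were likewise higher in 2 of 3, with sums of 22.8 to 50.5 and 34.2 to 48.4 CPM, and of 6 rod markers 2 were higher. Of 3 ganglion cell markers 2 were higher and 1 lower, and of 3 Muller glia markers 1 was higher and 2 lower. Their part in the result was not tested.

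Once group and run were taken out, the members still varied together from library to library. The correlation of each member with the mean of the others, on log2 CPM over the 43 libraries and as a description, had a median of 0.90. Among the 74 structural members it ran from 0.55 for Rps6 to 0.98 and exceeded 0.8 for 63. Rpl24 (-0.08) and Rps10 (-0.58) did not follow the rest. All points of these correlations share the library and its scaling.

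**Figure D3:**
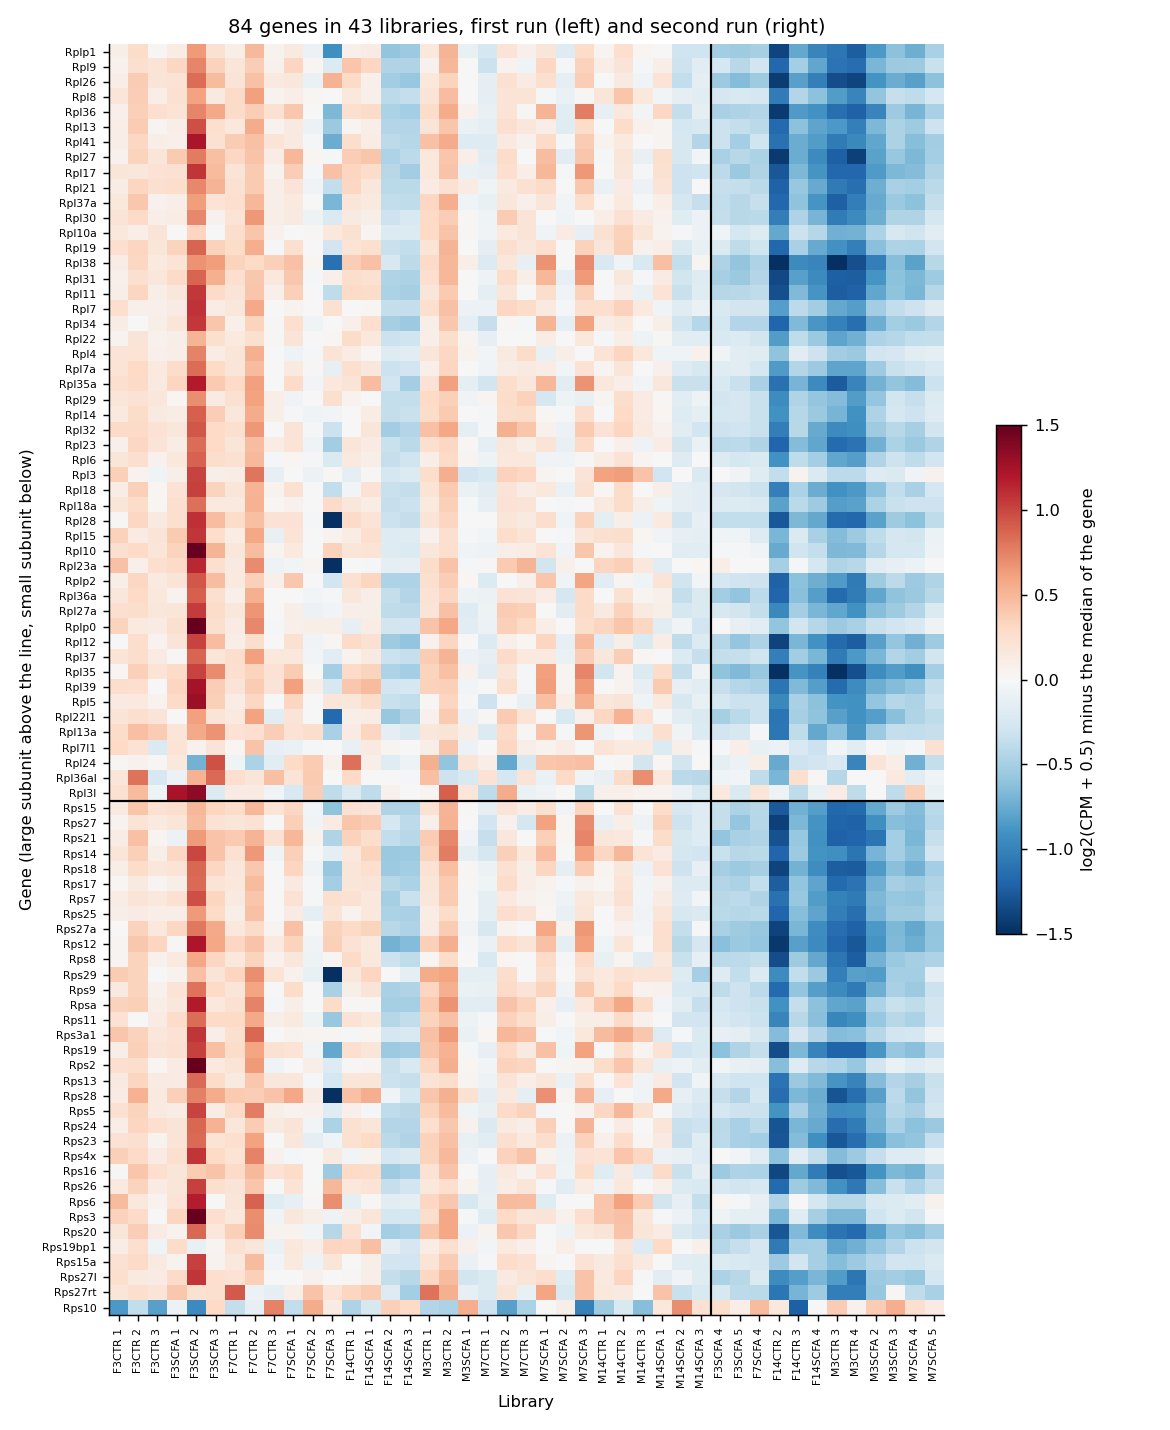
Log2 CPM of each of the 84 tested members (vertical axis, large subunit above the line and small subunit below) relative to the gene's median, in the 43 libraries (horizontal axis, first run left and second run right). Most genes change colour together at the border of the runs, where 79 of 84 were called lower.

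Whether SCFA changed the members was then asked within each sex and day, with the run of columns as a block. The comparisons below with run as block share one fit. In males at 3 dpl 0 of 84 members were called by edgeR's quasi-likelihood test, where 0.0220% of all genes were, 0 had an unadjusted p under 0.05 (10.9% of all genes did), and DESeq2 called 0. The summed level of treated retinas was 25817 CPM in the first run and 16996 and 19339 CPM in the second. The members' median log2 fold change was 0.04, and the log2 ratio of mean sums had opposite signs within the runs, -0.38 in the first (1 against 2 libraries) and 0.41 in the second (2 against 2).

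In females at 3 dpl 2 members were called higher and 0 lower. Of all genes 8.11% were called and 4.78% were higher, a larger share than among the members. All 84 fold changes were above zero, with a median of 0.26 (0.01 over all genes), 14 had an unadjusted p under 0.05 (21.5% of all genes did), and DESeq2 called 4 (10.6% of all genes). Rpl10, an X-linked protein near the peptidyl transferase centre, read 263, 273 and 252 CPM in the controls. In the treated libraries it read 279, 797 and 318 CPM in the first run and 218 and 220.0 CPM in the second. One treated library was far above all others and the groups overlapped, with a log2 fold change of 0.64 ± 0.21 (SE) and an adjusted p of 0.076.

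Rpl5 read 359, 364 and 341 CPM in controls and 402, 797, 419, 273 and 263 CPM in treated retinas, in the order of the replicates. The 3 first-run treated libraries lay above every control, replicate 2 highest, and both second-run libraries lay below, so the groups overlapped. The log2 fold change was 0.52 ± 0.18 (SE), with an adjusted p of 0.090 by edgeR's quasi-likelihood test. Rplp0, often used as a reference gene for PCR, read 1602 CPM in that replicate and 311 to 401 CPM in the other 4, against 369 to 428 CPM in controls, and missed the threshold (0.78, adjusted p 0.10). Replicate 2 was the library with lens transcripts, and without it 0 members were called, as was so without any 1 of the controls or without the run term. In this comparison 4 of 4 lens markers were called higher and their sum ran from 2.68 to 320 CPM in controls and from 12.9 to 172618 CPM in treated libraries. Of 4 pigment epithelium markers 2 were higher, with sums of 159 to 285 CPM and 109 to 1198 CPM. Of 3 Muller glia markers 2 were higher, with sums of 3231 to 3898 CPM in controls, 5699 to 6699 CPM in the first-run treated libraries and 3482 and 4599 CPM in the second-run ones. Of 13 mitochondrial mRNAs 2 were higher, with 5.21 to 6.70% of counts in controls and 3.83 to 11.5% in treated libraries. Of 3 skeletal muscle markers 3 were higher, with sums of 1.76 to 3.97 CPM and 2.41 to 53.8 CPM, as was 1 of 4 oligodendrocyte markers (24.0 to 26.0 and 24.7 to 124 CPM). Their part was not tested beyond leaving out the library.

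In males at 7 dpl 4 members were called higher and 0 lower. Of all genes 22.2% were called and 13.1% were higher, a larger share than among the members. The median was 0.15 against -0.02 over all genes, 9 members had an unadjusted p under 0.05 (29.4% of all genes did), and DESeq2 called 5 (23.1% of all genes). Rps27 read 284, 362 and 288 CPM in the controls. Treated libraries read 523, 353 and 567 CPM in the first run and 218 and 256 CPM in the second. Replicates 1 and 3 lay above every control and the 2 second-run libraries below, so the groups overlapped in pooled values. The log2 fold change was 0.61 ± 0.20 (SE), with an adjusted p of 0.030 by edgeR's quasi-likelihood test.

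Rpl5 read 265, 325 and 304 CPM in controls and 448, 351, 474, 237 and 263 CPM in treated retinas, with a log2 fold change of 0.51 and an adjusted p of 0.046 by edgeR's quasi-likelihood test. Rps27a read 344, 422 and 406 CPM against 608, 422, 640, 238 and 270 CPM (0.49, adjusted p 0.063). Rpl34, a large-subunit protein, read 172, 222 and 215 CPM against 310, 199, 333, 149 and 161 CPM (0.47, adjusted p 0.098). The same pattern held for all 4 genes, with replicates 1 and 3 highest and the 2 second-run libraries lowest. Replicates 1 and 3 are the libraries rich in mitochondrial mRNA, and with these and the other libraries that stood apart left out 0 members were called. The count was also 0 without treated replicate 3, without control replicate 1 or 3, and without the run term. Initiation factors called higher here, where 22.2% of all genes were called, were Eif1ax (0.61), Eif2s3x (0.57), Eif1a (0.51), Eif4a2 (0.47), Eif4g2 (0.45), Eif3e, Eif3j1 and Eif4e. Those called lower were Eif3b (-0.57) and Eif4h (-0.37). Of the genes of mTOR, TOP control and the S6 kinases, Rheb (0.54), Mdm2 (0.43) and Rps6ka3 (0.36) were higher and Mtor (-0.35) and Larp1 (-0.28) lower. Of 13 mitochondrial mRNAs 12 were called higher (median 1.11), with 5.59 to 6.14% of counts in controls and 3.74 to 14.8% in treated libraries. Of 3 Muller glia markers 2 were higher, with sums of 2417 to 3124 CPM and 3494 to 7460 CPM, while 1 of 6 rod and 1 of 6 microglia and macrophage markers were lower. Their part was not tested.

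In females at 7 dpl 0 members were called, where 0.643% of all genes were, 2 had an unadjusted p under 0.05 (15.8% of all genes did), and DESeq2 called 0. The median was -0.15, with 67 of 84 fold changes below zero. The smallest p was that of Rps29, a small-subunit zinc-finger protein, which read 296, 383 and 273 CPM in controls and 248, 218, 58.6 and 205 CPM in treated libraries. It was lower in all 4 treated libraries than in any control, with replicate 3 lowest, but its adjusted p was 0.29 by edgeR's quasi-likelihood test. In all, 6 members lay below and 1 above the controls without overlap, against 3.30% and 3.92% of all genes. The controls were all first-run libraries and include the one with Y-linked transcripts, and treated replicate 4 was a second-run library. Because the members ran lower in the second run, treatment and run cannot be told apart for replicate 4. The members counted without overlap were also without overlap among the first-run libraries, 3 treated against 3 controls.

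In males at 14 dpl all 6 libraries belonged to the first run. Of the members 3 were called lower and 0 higher. Of all genes 7.13% were called, 3.86% lower and 3.28% higher, so the share of members called lower was near that of all genes. Rpl3, which reaches towards the peptidyl transferase centre, read 714, 728 and 632 CPM in controls and 384, 469 and 404 CPM in treated retinas. The groups did not overlap, and the log2 fold change was -0.72 ± 0.21 (SE), with an adjusted p of 0.061 by edgeR's quasi-likelihood test. Rps3a1, a small-subunit protein near the exit of the mRNA channel, read 489.7, 527 and 469 CPM in controls and 308, 346 and 303 CPM after SCFA. Its groups did not overlap either (-0.63 ± 0.21, adjusted p 0.085).

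Rps6 read 334, 382 and 328 CPM in controls and 208, 229 and 196 CPM in treated retinas, also without overlap (-0.72 ± 0.24, adjusted p 0.088 by edgeR's quasi-likelihood test). Rpsa followed at -0.60, with 853, 966 and 786 CPM in controls and 629, 576 and 509 CPM in treated retinas, and was not called. Over the members the median was -0.21 against 0.01 over all genes, with 73 of 84 below zero, 9 with an unadjusted p under 0.05 (21.2% of all genes) and 5 called by DESeq2 (10.8% of all genes), 4 lower and 1 higher. In 31 of 84 members every treated library lay below every control, against 17.8% of all genes. Small-subunit and large-subunit genes did not all move this way: Rps27 changed by 0.00 and Rpl38 by 0.25, neither called. With the first-run libraries alone 0 members were called, as was so without treated replicate 1 or 3 or control replicate 1 or 2.

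Other translation genes in the males at 14 dpl, where 3.86% of all genes were lower and 3.28% higher, included 2 of 8 elongation factors called lower, Eef2 (-0.75) and Eef1a2 (-0.66), the form of neurons and muscle. Of 29 initiation factors 3 were lower and 0 higher, among them Eif3b (-0.78), and of 29 biogenesis factors 2 were lower, among them Bop1 (-0.53). Of 77 mitochondrial ribosomal proteins 3 were lower, a share near that of all genes, and of 7 snoRNA hosts 1 was, Snhg5 (-0.73). Higher were 2 of 16 genes of mTOR, TOP control and the S6 kinases, Rictor (0.53), a subunit of the second mTOR complex, and the S6 kinase Rps6kb1 (0.43), with 0 lower. Of 13 mitochondrial mRNAs 2 were higher, mt-Atp6 (1.77) and mt-Nd4 (0.86), with 4.71 to 5.43% of counts in controls and 4.86 to 7.91% in treated retinas. Of 4 pigment epithelium markers 1 was called lower (median -1.06), and their sum ran from 179 to 358 CPM in controls and from 80.0 to 146 CPM in treated retinas. Of 6 microglia and macrophage markers 1 was lower, with sums of 35.0 to 39.3 CPM in controls and 19.2 to 29.5 CPM in treated retinas. Of 3 ganglion cell and 3 Muller glia markers 0 were called, though their sums did not overlap either, with 233 to 295 against 186 to 223 CPM and 3449 to 3529 against 3110 to 3403 CPM. Their part in the result was not tested.

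In females at 14 dpl 0 members were called and 0% of all genes. The members' median was -0.15, with 79 of 84 below zero, 1 with an unadjusted p under 0.05 (2.91% of all genes), and 0 called by DESeq2. That member was Rps10, a gene of uncertain counts, which was higher at 0.77, against the direction of the median. Summed levels were 29867, 20285 and 20274 CPM in the first-run treated libraries against 29871 CPM in the 1 first-run control, and 16220 CPM in the second-run treated library against 12744 and 18590 CPM in the second-run controls. Within the runs the log2 ratio of mean sums was -0.35 and 0.05.

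Averaged over sexes and days, 2 members were called higher and 2 lower, where 34.7% of all genes were called, 17.7% higher and 17.0% lower. The median was -0.00. The higher ones were both genes of uncertain counts, Rps10 (0.58 ± 0.14, adjusted p 0.0024 by edgeR's quasi-likelihood test) and Rpl24 (0.35, adjusted p 0.077). The lower ones were Rps3a1 (-0.21, adjusted p 0.047) and Rpl3 (-0.19, adjusted p 0.080). These counts moved with the libraries. The first run alone gave 1 higher and 16 lower, and without female SCFA replicate 2 at 3 dpl 2 were higher and 13 lower. Without the library with Y-linked transcripts 2 were higher and 0 lower, and 1 of the 4 members above, Rps10, was still called. In males at 14 dpl, where its contrast was largest, Rps10 read 2.03, 2.61 and 1.85 CPM in controls and 3.57, 5.43 and 3.79 CPM in treated retinas, without overlap, against 15.7% of all genes with a higher and non-overlapping treated group.

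**Figure D4:**
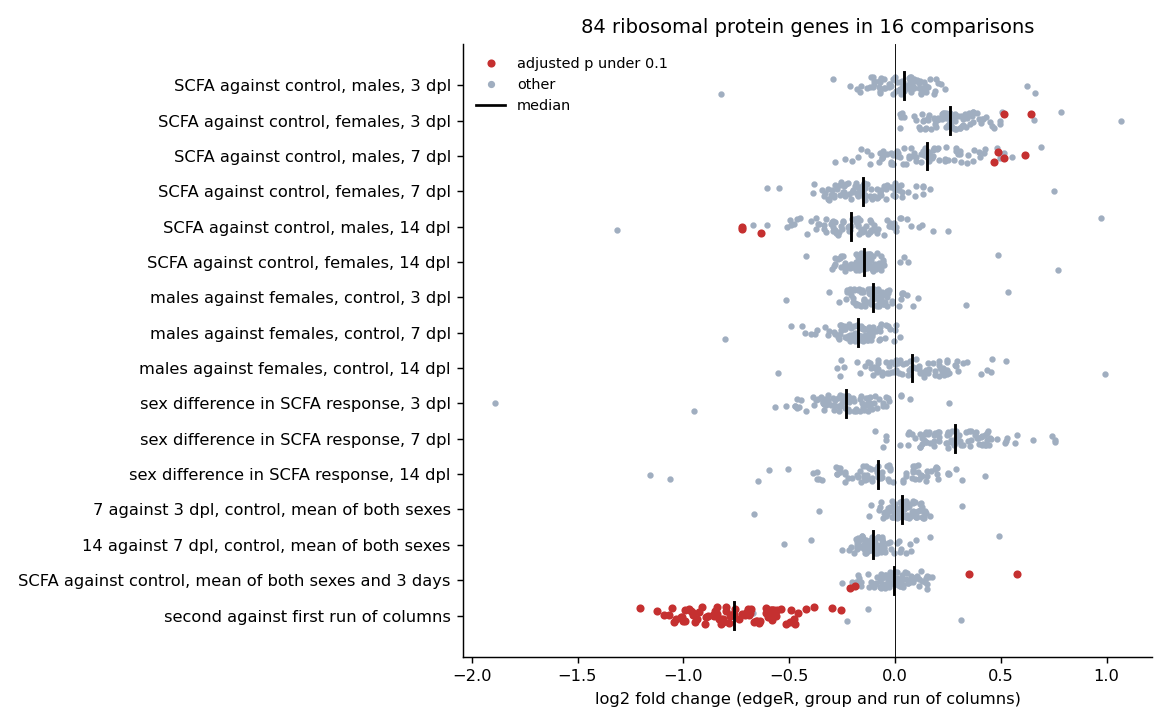
Log2 fold change (horizontal axis) of each of the 84 tested members in the comparisons of treatment, sex, day and run (vertical axis), with called members in red and a bar at the median. In the run comparison 79 points are red, against 0 to 4 in each of the others.

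A second way of fitting gave other counts and, in 2 of 4 comparisons, a median of the members with the other sign. For the comparisons at 7 and 14 dpl the study lists the libraries it used, and these were fitted a pair of groups at a time with no term for the run, which left 82 members to test. Libraries, run term and the groups fitted together thus changed at once, except that in males at 14 dpl the libraries compared were the same. This fit alone cannot tell their parts apart. Leaving out only the run term, with all libraries kept, gave 0 called members in males at 7 dpl and 0 at 14 dpl. In females at 14 dpl the 2 listed controls were second-run libraries and the 3 listed treated libraries were first-run libraries. There 34 members were called higher and 0 lower, where 17.7% of all genes were called 8.40% higher and 9.29% lower, with a median of 0.68 and all 82 fold changes above zero. Rpl38 read 67.0 and 99.0 CPM in these controls and 261, 163 and 146 CPM in the treated libraries, without overlap. Its log2 fold change was 1.21 ± 0.27 (SE), with an adjusted p of 0.057 by edgeR's quasi-likelihood test, and with all libraries and the run as block it was -0.06. Rpl35 gave 1.06 here and -0.17 with all libraries and the block. In this choice of libraries treatment and run cannot be told apart.

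In males at 7 dpl the 3 listed controls were first-run libraries, and of the listed treated libraries replicate 2 was of the first run and replicates 4 and 5 of the second. Here 36 members were called lower and 1 higher, where 19.1% of all genes were called and 8.47% were lower, with a median of -0.37 against 0.15 for all libraries with the block. Rpl22l1 had the smallest adjusted p. It read 37.5, 48.8 and 42.9 CPM in controls and 31.7, 27.1 and 28.4 CPM in these treated libraries, without overlap. Its log2 fold change was -0.56 ± 0.12 (SE), with an adjusted p of 0.024 by edgeR's quasi-likelihood test, and with the block and all libraries it was -0.16. The 4 members called higher with all libraries and the block fell on the other side of zero here, with -0.17 for Rps27, -0.06 for Rpl5, -0.32 for Rps27a and -0.25 for Rpl34, none of them called. The 1 higher member was Rps10 (0.80).

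In females at 7 dpl, with 2 listed libraries a group and all of the first run, 0 members and 0% of all genes were called, with a median of -0.09 against -0.15. In males at 14 dpl the listed libraries were all 6, so the same values entered, scaled and fitted as a pair of groups. There 24 members were called lower and 1 higher, where 24.6% of all genes were called and 12.6% were lower, with a median of -0.19 against -0.21. Rpl3 had a log2 fold change of -0.71 with an SE of 0.11, in place of -0.72 with 0.21, and its adjusted p by edgeR's quasi-likelihood test went from 0.061 to 0.0067. Rps6 and Rps3a1 reached 0.0067 and 0.0076, Rpsa 0.012, Rplp0 0.013 and Rps4x 0.017. With the same 6 libraries, 24 members were called lower in the pair fitted alone and 3 in the fit of all 43.

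**Figure D5:**
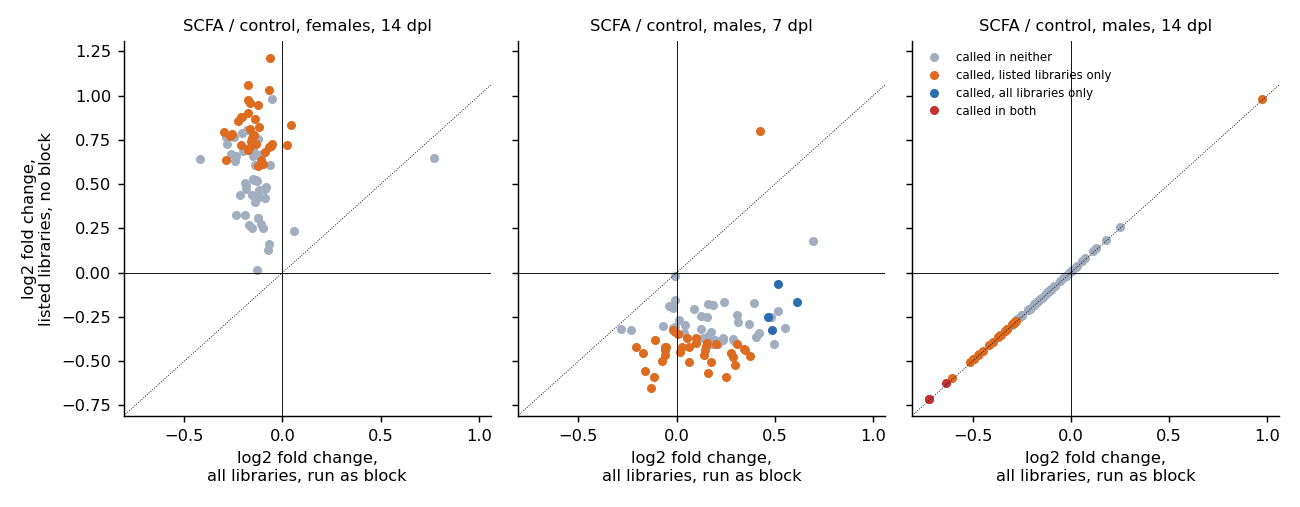
Log2 fold change of SCFA against control for the members tested in both fits, with all libraries and the run as block (horizontal axis) and with the libraries the study lists and no block (vertical axis), in the comparisons named above each panel, with called members coloured. Other than Rps10, the points lie above the line of equality in females at 14 dpl (median 0.68 in the listed libraries), below it in males at 7 dpl (median -0.37) and in males at 14 dpl on it.

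Males and females did not show a called difference in the members. Among controls, edgeR's quasi-likelihood test called 0 members at 3 dpl, where 0.0495% of all genes were called, 0 at 7 dpl (0.0275%) and 0 at 14 dpl (4.65%). At an unadjusted p under 0.05 there were 0, 1 and 2 members (5.17%, 3.81% and 18.1% of all genes), and DESeq2 called 0 on each day. Median log2 fold changes of males against females were -0.10, -0.17 and 0.08, with median SEs of 0.20, 0.21 and 0.22. The female controls at 7 dpl include replicate 2, the library with Y-linked transcripts. Its summed level of the members was 37889 CPM, against 30546 and 27573 CPM in the other replicates. Without any 1 library of this comparison the count at 7 dpl stayed 0. The 2 members at 14 dpl were Rpl3 (0.52, adjusted p 0.20 by edgeR's quasi-likelihood test) and Rps3a1 (0.45, adjusted p 0.26).

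Of the members, 4 lie on the X chromosome. Rps4x, the small-subunit protein whose human gene has a copy on the Y, read 413, 392 and 352 CPM in female controls at 3 dpl. In male controls it read 405 and 449.8 CPM in the first run and 206 and 220.0 CPM in the second. First-run libraries of the sexes were close together and both second-run libraries were low. Its log2 fold change of males against females was -0.11 at 3 dpl, -0.10 at 7 dpl and 0.30 at 14 dpl. For Rpl10 the 3 values were -0.17, -0.19 and -0.04, for Rpl36a -0.19, -0.11 and 0.08, and for Rpl39 -0.01, -0.19 and -0.26. None was called.

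The response to SCFA was not shown to differ between the sexes for any member. The test of that difference called 0 members and 0% of all genes at 3, 7 and 14 dpl, with 1, 1 and 0 members at an unadjusted p under 0.05 by edgeR's quasi-likelihood test (12.6%, 7.32% and 10.01% of all genes) and 0 called by DESeq2 on each day. The medians, male minus female response, were -0.23, 0.28 and -0.08 on the log2 scale, with median SEs of 0.27, 0.27 and 0.29. The member at 3 dpl was Rplp0 (-0.95, adjusted p 0.33), whose value in the female library with lens transcripts is given above, and at 7 dpl it was Rpl38 (0.74, adjusted p 0.68).

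No member was called between days either. Between 7 and 3 dpl and between 14 and 7 dpl in controls of both sexes, edgeR's quasi-likelihood test called 0 members and 0% of all genes, 0 members had an unadjusted p under 0.05 (6.55% and 9.35% of all genes did), and DESeq2 called 0. The medians were 0.03 and -0.11, with median SEs of 0.15 and 0.15. A p that misses the threshold does not show equal levels.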

How the data were processed

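Bulk RNA of retina was measured in 43 libraries. The authors deposited 1 table of raw counts per gene, on mm10 and with DESeq2 in their processing notes. The aligner, the counter and its strand setting are not given in the sources used here. Of its gene identifiers, 37 were not in GENCODE M21. The members and gene lists were chosen with earlier results of these data known. Named in the text are the stalk proteins and Rpsa, X-linked members, paralogues, members with roles outside translation, the called members with the 5 smallest adjusted p in each direction, called members opposite to the median, and the 10 highest and lowest per kilobase; Rps4l, listed for this, has no protein-coding row, and Rps29, Rps27 and Rpl38 in some comparisons were chosen after their values were seen.

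Counts were filtered with filterByExpr, scaled by TMM and fitted with edgeR 4.0.16 (R 4.3.3) in 1 quasi-likelihood model of the 12 groups plus the run of columns. Called means an adjusted p under 0.1, the study's cut on that value. The study also required a fold change beyond 1, which was not part of a call here except where stated. CPM use the TMM-scaled totals. With 14826957 to 21507527 counts per library, 3 counts correspond to 0.134 to 0.246 CPM, which covers counting error only. Groups came from the sample titles, since the treatment field of the labels reads control for every sample. Replicates are separate pools of retinas. In same-numbered libraries of the 2 treatments (18 pairs), what remained of log2 CPM after group and run of columns was correlated at -0.19 to 0.17, with 5 over 0.1. In females at 3 dpl all 3 pairs were over 0.1 (0.12 to 0.16), and in no other comparison were all 3. The reported fit did not use the replicate numbers. An alternative fit added them as a block shared by all libraries and groups, so it did not pair the libraries of that comparison alone. With this block 2 members were called in females at 3 dpl. The 59 pairs of libraries within groups held 0 identical pairs. DESeq2 1.42.0 was the second tool. Other alternatives left out each library, the run term or the filter, used the first run or the listed libraries alone, added offsets for GC content or transcript length, or a replicate block. The scripts were tested on simulated counts with known changes. Of changes of 1.5-fold, edgeR called 22.4% for SCFA in males and 28.4% in females at 14 dpl, so most changes of that size were missed. Other genes named Rpl or Rps that are not protein-coding or end in -ps (296) and Rps6k genes (10) were left out. Promoter windows came from RefSeq and coding sequences from GENCODE M21; proteins were not analysed here. One gene of the pathway lists is not reported here.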

Additional observations from a re-analysis of the deposited data

Results flagged for a closer look

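In groups of 4 or 5 libraries, the named members were checked for a library far from the rest of its group. Of 165 sets of a gene and group, 15 had such a library. Chance gives about 1 in 20 for independent sets drawn from 1 distribution, but all 5 of these groups hold libraries of both runs and the members share libraries and vary together, so that share does not apply directly here.

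Female SCFA replicate 2 at 3 dpl, the library with lens transcripts, was the far one in 8 of these. It read 797 CPM of Rpl10 (218 to 318 in the other 4), 948 of Rpl3 (453 to 501), 1131 of Rpl7 (443 to 584) and 1602 of Rplp0 (311 to 401). It also read 745 CPM of Rps3a1 (323 to 412), 680.1 of Rps4x (312 to 396), 567 of Rps6 (247 to 289) and 1472 of Rpsa (519 to 726). The scaling factor of this library was 0.703, the lowest of the 43.

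In females with SCFA at 7 dpl, replicate 4, the second-run library of the group, was low, with 98.3 CPM of Rpl36a (125 to 129.6 in the others), 301 of Rplp0 (357 to 359) and 300.01 of Rps3a1 (363 to 366). Replicate 3 of that group was high for Rps6, with 406 CPM against 231 to 253. In females with SCFA at 14 dpl, replicate 1 read 656 CPM of Rpsa against 421 to 458. In males with SCFA at 7 dpl, replicate 2 read 0.496 CPM of Rpl36al (0.222 to 0.277) and replicate 3 read 1.31 CPM of Rps10 (3.13 to 3.84), both genes with uncertain counts.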

How the results depend on the processing

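Over the 16 comparisons, 158 recomputed counts of members called stayed within 1.5 times the reported count and 36 did not. DESeq2 called 4 members in females at 3 dpl and 5 in males at 14 dpl. Requiring a log2 fold change beyond 1 left 0 for SCFA in females at 3 dpl, males at 7 and 14 dpl and the mean over groups, and 10 for the run. The first run alone gave 4 in females at 3 dpl, 0 in males at 14 dpl and 17 for the mean, and a fit without the run gave 0 in females at 3 dpl and in males at 7 and 14 dpl. The listed libraries gave 34 in females at 14 dpl, 25 in males at 14 dpl and 37 in males at 7 dpl, and there 4 log2 fold changes in males at 7 dpl changed sign (Rps27a -0.32, Rpl5 -0.062, Rpl34 -0.25, Rps27 -0.17). Without the filter, females at 3 and 7 dpl gave 11 and 2, males at 14 and 7 dpl 9 and 9, the mean 14, the sex difference in response 1 at 3 dpl and 3 at 7 dpl, and control sexes at 14 dpl 1. The GC offset gave 1 in males at 14 dpl, 8 in males at 7 dpl and 15 for the mean, and the length offset 5 in females at 3 dpl, 11 in males at 7 dpl and 10 for the mean. Without the 4 libraries that stood apart, an alternative chosen after seeing the data, counts were 0 in females at 3 dpl, 10 and 0 in males at 14 and 7 dpl, and 2 for control sexes at 14 dpl, and without the Y-linked library alone the mean gave 2. The causes were not tested. Leaving out 1 library at a time gave 0 to 3 in females at 3 dpl (0 without SCFA replicate 2 or any control) and 0 to 10 in males at 7 dpl (0 without SCFA replicate 3 or control replicates 1 or 3, 10 without SCFA replicate 2). It gave 0 to 3 in males at 14 dpl (0 without SCFA replicates 1 or 3 or control replicates 1 or 2, 1 without control replicate 3), 2 to 15 for the mean (15 without female SCFA replicate 2 at 3 dpl, 7 or 8 without female SCFA replicate 3 or female control replicate 3 at 7 dpl, male control replicate 1 at 7 dpl or male control replicate 3 at 3 dpl, and 2 without male SCFA replicate 3 at 14 dpl, female control replicate 2 or male control replicate 2 at 7 dpl), 77 to 81 for the run and 0 to 0 in all others. With the replicate block the mean gave 7 and the run 74, and it changed no count of the other comparisons by more than 1.5 times. The check of the pairing is given with the processing. Among fold changes of named members 363 recomputed values kept direction and side of the threshold, 38 lost it, 4 gained it and 4 changed sign. Median counts of 57 or fewer (Rps10, Rpl24, Rpl36al, Rpl3l) limit what can be said of those genes.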

Other observations

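Female SCFA replicate 3 at 7 dpl held an uneven set of ribosomal protein mRNAs. With group and run taken out, the SD of 74 members around the mean of this library was 0.44 on the log2 scale, against 0.25 in female SCFA replicate 2 at 3 dpl and less in the other 41 libraries. Rpl23a read 149, 157, 30.8 and 153 CPM in replicates 1 to 4, Rps28 204, 148, 34.4 and 113, and Rpl28 393, 334, 100.5 and 263. Rps29 (248, 218, 58.6 and 205) and Rpl38 (260.3, 197, 88.4 and 139) were also lowest in replicate 3. In contrast Rps6 read 231, 253, 406 and 231 CPM and Rpl26 534, 442, 679 and 327, both highest in replicate 3. The 7 genes were picked after their values were seen, and nothing was tested.

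Rplp0, a common reference gene, read 276 to 1602 CPM in the first run and 224 to 338 CPM in the second.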
